A study of Mus musculus with 18 samples.

Results

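The RNA of 40 mitosis and spindle genes was measured in fibroblasts of mouse heart, kidney and tail, in culture and after transplantation under the kidney capsule. The genes were chosen as a list of symbols, and all 40 matched a single Ensembl gene of the 38924 in the count table and passed the filter on low counts that left 16577 genes for testing. The cells came from the heart, kidney and tail of 10-week-old male Rosa mT/mG mice on a C57BL/6 background, whose cells carry a membrane-bound tdTomato reporter, and all had been grown in dishes for 10 days. Part of each culture was soaked into gelatin foam and placed under the kidney capsule of C57BL6/J mice aged 10 to 11 weeks, and live CD45−;TdTomato+ cells were sorted 3 days later and named by their organ of origin (HFs from heart, KFs from kidney, TFs from tail). The remaining cells were replated and served, after 3 days, as the cultured controls (HFc, KFc and TFc), for which the sources used here describe no sort after replating. Each of the 6 groups had 3 RNA-seq libraries. Since the cultured cells grew on plastic and the transplanted cells in a host kidney, and a sort after the 3 days is described for the second alone, state, place and sorting cannot be told apart. The study calls the libraries of a group biological replicates and prepared a tube of cells for each transplant. Which donor animals or cultures each library came from is not given in the sources used here, so p-values measure the spread between these libraries.

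A dividing cell copies its DNA in S phase, and then, in mitosis, condenses its chromosomes, attaches them to a spindle of microtubules and pulls the copies apart. CDK1 with cyclins A and B drives entry into mitosis, the kinetochore links chromosome to microtubule, the spindle assembly checkpoint holds the cell until all chromosomes are attached, and the anaphase-promoting complex then destroys cyclin B and securin, so that separase can free the sister chromatids. The RNAs of most of these proteins are made in G2 and mitosis and are scarce in resting cells, which is why they are widely read as signs of proliferation. Fibroblasts are mostly resting in healthy adult organs and enter the cell cycle in culture and in wounds.

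Libraries held between 17927838 and 32245168 counts, and the members between 38 (*Cdc25c*, TFc replicate 2) and 17923 counts (*Mki67*, KFs replicate 2), so none was near the detection limit. All 10 fibroblast markers examined, among them *Col1a1* and *Pdgfra*, had counts above 0 in every library, though not all were abundant. The library labelled KFs replicate 3 stood apart: *Xist*, which is transcribed from the inactive X chromosome of female cells, was at 1490 CPM (counts scaled to a common total with edgeR's TMM factors) there and at most at 0.404 CPM in the others. Y chromosome transcripts (*Uty*, *Kdm5d*, *Ddx3y* and *Eif2s3y*) summed to 0.719 CPM in it and to between 175 and 230 CPM elsewhere, which goes against the label of male donor cells. The name of this library, Kidney-Fibros, also departs from the scheme of the other library names. Its 10 fibroblast markers summed to 30000 CPM, against 80300 and 104000 CPM in the other KFs libraries and 22100 to 23400 CPM in KFc. The counts of genes called in KFs are also given without it, while the CPM and fold changes of single genes include it unless stated otherwise. Of the fibroblast markers, *Lum* was near 0 in KFc (0.0349 to 0.224 CPM) and HFc (0.182 to 0.786 CPM). *Dcn* was at 12.4 to 14.1 CPM in KFc. Kidney tubule RNA was also present in the transplanted libraries. All 10 proximal tubule markers had counts in every transplanted library, with sums of 78.7 to 1180 CPM in HFs (1180 CPM in replicate 2), 58.7 to 123 CPM in KFs and 127 to 326 CPM in TFs. In culture these sums were 22.5 to 25 CPM in HFc, 103 to 111 CPM in KFc and 19.5 to 21.8 CPM in TFc, with *Kap* and *Slc27a2* at 0 in all 9 cultured libraries. Most of the KFc sum was *Lrp2* (99.2, 98.3 and 92 CPM), which was at 45.1, 22.7 and 55.1 CPM in KFs. The 10 leukocyte and macrophage markers summed to 390 to 410 CPM in KFc and 37.6 to 144 CPM in KFs, 170 to 199 CPM in TFc and 39.5 to 44.6 CPM in TFs, and 81.2 to 94.6 CPM in HFc and 84.9 to 150 CPM in HFs. *Cd3e*, of T cells, was at 0 in all cultured libraries. In bulk RNA, fewer cells in division and less of these RNAs per dividing cell cannot be told apart.

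In culture, the genes were most abundant in heart fibroblasts and least abundant in kidney fibroblasts. Summed over the 40 genes, HFc libraries held 1753, 1765 and 1632 CPM, TFc libraries 947.9, 959.7 and 969.1 CPM, and KFc libraries 592.9, 595.2 and 575.8 CPM, with no overlap between the groups. After transplantation this order was no longer present. HFs libraries held 1189, 896.8 and 1010 CPM, KFs libraries 1661, 2699 and 1250 CPM, and TFs libraries 2236, 1164 and 882.7 CPM. The HFs sums lay below and the KFs sums above those of their own cultures in every library, whereas the TFs sums lay on both sides of TFc. Ranked by mean, the order was KFc (588 CPM), TFc (958.9 CPM), HFs (1032 CPM), TFs (1428 CPM), HFc (1717 CPM) and KFs (1870 CPM). KFc was separate from all other groups. The ranges of TFc, HFs and TFs overlapped each other, as did those of TFs and KFs with HFc.

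**Figure D1:**
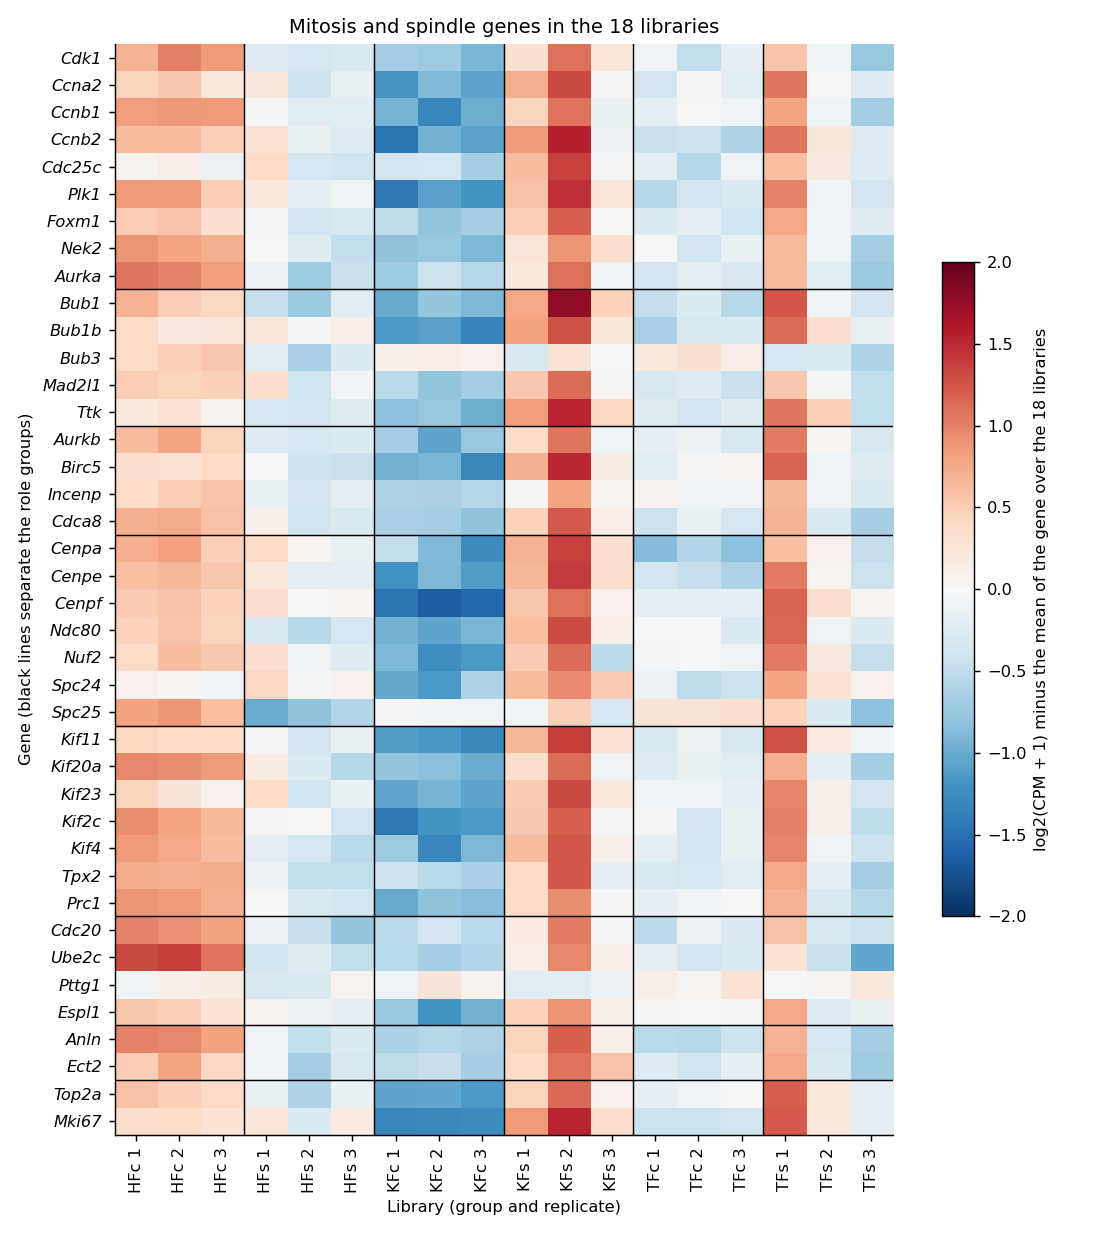
Level of each of the 40 genes (rows, in role groups separated by lines) in each of the 18 libraries (columns), as log2(CPM + 1) minus the gene's mean over the libraries, red for above and blue for below it. Rows are coloured alike down most columns: KFc is blue for all but a few genes, KFs replicate 2 and TFs replicate 1 are red, and *Bub3*, *Spc25* and *Pttg1* depart from the pattern.

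The genes moved as a block. Over the 18 libraries, which fall into 6 groups and share their scaling, the log2 CPM of 37 genes correlated with the mean of the other 39 by 0.793 (*Spc24*) to 0.977 (*Foxm1* and *Kif4*). The remaining genes were *Spc25* (0.5), *Bub3* (0.229) and *Pttg1* (-0.347). Without KFs replicate 3, over 17 libraries, these 3 were at 0.514, 0.229 and -0.345 and the other 37 between 0.805 (*Spc24*) and 0.978 (*Foxm1* and *Cenpe*). The block also set libraries of one group apart: KFs replicate 2 was the highest KFs library for 39 of the 40 genes, TFs replicate 1 the highest TFs library for 38, and HFs replicate 1 the highest HFs library for 34. TFs replicate 3 was the lowest of its group for 38 genes and KFs replicate 3 for 35. The 3 libraries of each cultured group stayed close together, with an SD of the summed level of 10.6 CPM in KFc and in TFc and 73.6 CPM in HFc, against 747 CPM in KFs and 714 CPM in TFs. Since all tests share 1 fit, the error of every comparison draws on the spread of all 6 groups, also that of KFs and TFs. Levels per kilobase used the longest transcript of each gene in GENCODE's basic set, which need not be the one these cells make. On this scale, *Mki67* had the highest mean level of the list in HFs (20.6 CPM per kb) and KFs (39.3 CPM per kb), *Prc1* and *Top2a* in HFc (28.2 CPM per kb each), *Spc25* in KFc (10.8 CPM per kb) and *Top2a* in TFc and TFs (18.9 and 29.1 CPM per kb). *Mki67* (chr7:135689784-135716361, GRCm38) encodes Ki-67, which coats mitotic chromosomes and is the usual proliferation marker. *Mad2l1*, of the spindle checkpoint, was among the lowest, at 1.76 CPM per kb in HFc, 0.732 in KFc and 1.98 in KFs. Its length was taken as 7557 bases, and its place per kb depends on that choice.

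The genes outside the list with the most similar pattern all belonged to the lists of spindle, kinetochore and condensin genes described further on. Ranked by Pearson's r with the mean log2 CPM of the 40 genes over the 18 libraries, the first 10 were *Cdca3* (0.989), *Racgap1* (0.981), *Hmmr* (0.973), *Dlgap5* (0.972), *Ckap2l* (0.971), *Kntc1* (0.969), *Kif20b* (0.966), *Ncapg* (0.965), *Sgo1* (0.965) and *Pbk* (0.958). Without KFs replicate 3 the r of these genes was 0.961 (*Pbk*) to 0.991 (*Cdca3*). *Cdca3* had a mean of 16.5 CPM in HFc and 8.82 CPM in HFs, 4.39 CPM in KFc against 17.1 CPM in KFs, and 7.99 CPM in TFc and 11.5 CPM in TFs. *Racgap1*, a partner of *Ect2* and *Kif23* at the spindle midzone, had 38.2 and 24.4 CPM in heart, 15.4 and 43.8 CPM in kidney and 25.8 and 35 CPM in tail cells in the same order.

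Since the genes moved together, their promoters were read for sequences they share. Genes of late cell cycle expression are known to carry CCAAT boxes, which NF-Y binds, upstream of a cell cycle homology region (CHR) near the start site, which DREAM and MuvB complexes bind. RefSeq promoter windows on GRCm38.p6 were at hand for 32 of the 40 genes, as 35 windows because *Bub3*, *Prc1* and *Ect2* have a pair each. In the 250 bases before the start, 28 of the 35 windows (80%) held CCAAT or its reverse complement ATTGG, against 33.8% of all 32851 windows in the table. The CHR core, searched as TTTGAA, its reverse complement TTCAAA, and TTCGAA, was in 15 (42.9%) against 17.1%. Both were in 14 (40%) against 6.02%. Adding the 50 bases after the start, a window chosen after seeing the data, raised the CHR share to 80% (95% Wilson interval 64.1% to 90%) against 19.2% of all windows, and the share with both to 71.4% against 7.52%. A CHR core began within those 50 bases in 45.7% of the member windows and 2.46% of all. Only in the *Cdca8* window did a match of one motif overlap one of the other. These are matches of letters, not binding sites. The 7 stretches that follow run 5′ to 3′ on the gene's strand from 110 bases before to 30 after the RefSeq start, with CCAAT box and CHR core matches in capitals.
*Ccnb2* (chr9:70421525-70421664, minus strand): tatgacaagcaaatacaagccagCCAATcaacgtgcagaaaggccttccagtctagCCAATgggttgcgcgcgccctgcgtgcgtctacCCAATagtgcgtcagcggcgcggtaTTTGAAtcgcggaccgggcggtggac
*Cdc20* (chr4:118437314-118437453, minus strand): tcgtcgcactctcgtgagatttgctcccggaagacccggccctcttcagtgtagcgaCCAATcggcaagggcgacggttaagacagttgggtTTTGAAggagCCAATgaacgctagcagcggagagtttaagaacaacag
*Cenpf* (chr1:189688057-189688196, minus strand): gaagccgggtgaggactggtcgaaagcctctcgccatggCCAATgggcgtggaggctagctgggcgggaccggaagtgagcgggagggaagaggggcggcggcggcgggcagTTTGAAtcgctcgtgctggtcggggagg
*Bub1* (chr2:127831830-127831969, minus strand): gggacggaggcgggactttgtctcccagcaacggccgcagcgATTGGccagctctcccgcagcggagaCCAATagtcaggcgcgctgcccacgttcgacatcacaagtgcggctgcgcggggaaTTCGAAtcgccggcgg
*Cenpa* (chr5:30666776-30666915, plus strand): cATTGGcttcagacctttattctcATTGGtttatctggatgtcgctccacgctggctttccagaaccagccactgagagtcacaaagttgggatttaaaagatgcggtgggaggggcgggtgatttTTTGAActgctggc
*Kif23* (chr9:61946770-61946909, minus strand): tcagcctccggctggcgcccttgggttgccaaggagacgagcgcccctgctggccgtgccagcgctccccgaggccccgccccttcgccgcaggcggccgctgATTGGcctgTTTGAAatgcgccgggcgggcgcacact
*Bub3* (chr7:131560260-131560399, plus strand): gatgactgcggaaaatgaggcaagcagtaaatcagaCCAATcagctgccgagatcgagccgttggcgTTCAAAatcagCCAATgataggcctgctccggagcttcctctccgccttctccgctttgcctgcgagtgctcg

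The first 6 of these genes, of cyclin, anaphase, kinetochore, checkpoint, centromere and midzone roles, were picked from those that moved with the block, and *Bub3* because it did not. All of the printed stretches hold both motifs, which not every window of the block does. The windows of *Ccnb1*, *Nek2* and *Cenpe* had no CHR core, and those of *Ndc80*, *Kif2c* and *Anln* no CCAAT box. *Ccnb2* held 3 CCAAT boxes at intervals of 33 bases. The CHR core lay just past the start in all but *Cdc20* and *Bub3*, where it lay before the start between 2 CCAAT boxes, which were 45 and 42 bases apart. *Mad2l1*, *Birc5*, *Nuf2* and *Pttg1* had neither motif in the whole window. The *Pttg1* window lies 270 bases into the gene as GENCODE draws it, so it may not be the start these cells use. GENCODE's gene start was within 100 bases of the RefSeq start for 27 of the 35 windows. Besides *Pttg1*, it was further off for *Bub3* (-148 and -272), *Cenpa* (-109), *Mad2l1* (169), *Kif4* (-328), *Cdca8* (-2394) and *Kif2c* (-3867). A minus sign marks a GENCODE start upstream of the RefSeq start, and the same caution holds for these windows.

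**Figure D2:**
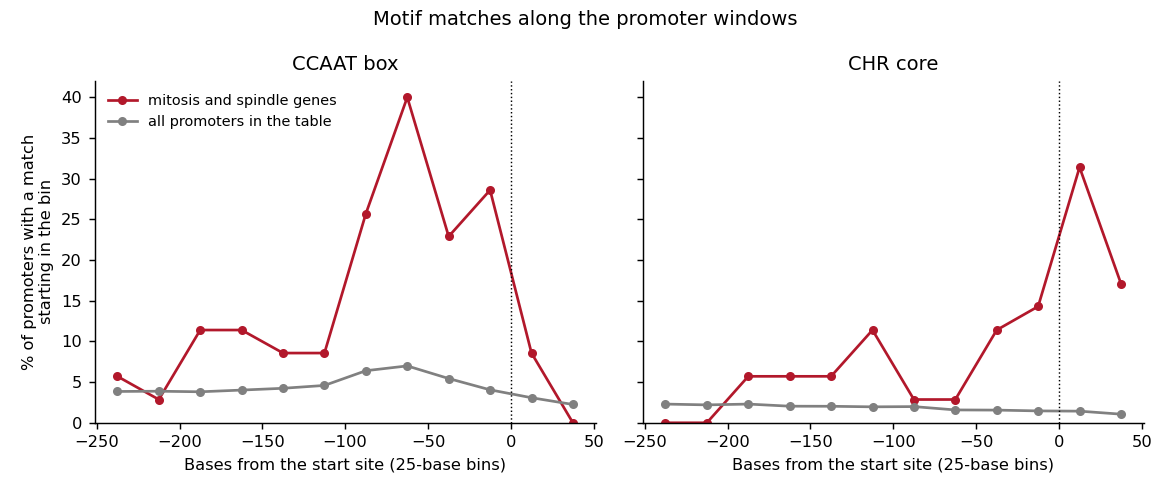
Share of promoter windows with a match starting in each 25-base bin, by distance in bases from the RefSeq start site (dotted line), for the 35 windows of the mitosis and spindle genes (red) and all 32851 windows (grey). CCAAT matches of the list peak at 40% between 75 and 50 bases before the start, where all windows are at 6.99%, and CHR core matches at 31.4% in the 25 bases from the start, where all windows are at 1.43%.

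The comparison of cultured cells asks how far the organs differed before transplantation. Relative to KFc, 37 of the 40 genes were higher in HFc at an adjusted p under 0.05 (edgeR's quasi-likelihood test over all 16577 genes, Benjamini-Hochberg adjustment), where 15.1% of all genes were. The median log2 fold change was 1.60. In 39 genes the lowest HFc library was above the highest KFc library, as for 29.3% of all genes. *Kif2c*, a kinesin that takes microtubules apart at the kinetochore, differed most, with 24, 21.5 and 19.4 CPM in HFc and 3.84, 4.71 and 4.92 CPM in KFc. Its log2 fold change was 2.27 ± 0.36 (SE, adjusted p = 0.000179). *Plk1*, the polo kinase of mitotic entry, had 26.5, 26.7 and 20.5 CPM in HFc and 4.66, 6.21 and 5.65 CPM in KFc (log2 fold change 2.16 ± 0.34). The 3 genes that did not pass the threshold were *Cdc25c* (0.70 ± 0.42), *Bub3* (0.37 ± 0.14) and *Pttg1* (-0.03 ± 0.16).

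Tail cells lay between. Relative to TFc, 24 genes were higher in HFc (20.9% of all genes were) and 18 were lower in KFc (18.5% of all genes were), with median log2 fold changes of 0.90 and -0.71. The groups did not overlap in 38 and 35 of the genes, as for 31.6% and 31.1% of all genes. *Cenpa*, the histone variant that marks centromeres, was higher in HFc by 1.65 ± 0.33 (adjusted p = 0.000834) but did not differ detectably between KFc and TFc (-0.11 ± 0.33). *Ube2c*, the ubiquitin-conjugating enzyme of the anaphase-promoting complex, had 33.3, 35 and 28.3 CPM in HFc and 11.1, 9.61 and 10.3 CPM in TFc, a log2 fold change of 1.63 ± 0.29. For KFc against TFc it was -0.36 ± 0.29 (adjusted p = 0.355). *Cenpf*, a large kinetochore protein, differed from TFc more in KFc (-1.40 ± 0.26) than in HFc (0.71 ± 0.25). Both counts fell when a single library was left out. For HFc this gave 13 to 20 genes, with 13, 14 and 15 without TFc replicate 1, 3 and 2. For KFc it gave 5 to 9, whichever of the 6 libraries was left out.

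In kidney fibroblasts, nearly all the genes rose after transplantation. In KFs, 37 of 40 genes were higher than in KFc and none was lower, where 26.1% of all genes tested were higher and 22.7% lower (48.8% in either direction). At an unadjusted p under 0.05, and by DESeq2, the counts were also 37 and 0. Among them, 36 rose more than 2-fold, as did 14.7% of all genes. The median log2 fold change was 1.70, against 0.093 over all genes. In 37 genes the lowest KFs library lay above the highest KFc library, as for 26.2% of all genes. Without KFs replicate 3, 37 genes were higher and the median was 1.88. The log2 fold changes of these 37 then ran from 1.04 (*Incenp*) to 2.59 (*Ccnb2*), each larger than with that library by 0.02 (*Ect2*) to 0.30 (*Nuf2*). Without KFs replicate 2, the library with the highest sum, 34 were higher with a median of 1.27. The calls of *Aurka*, *Tpx2* and *Cdc20* were lost in that second case (log2 fold changes 0.68, 0.64 and 0.56). The leukocyte marker sum was lower in KFs than in KFc. Of the 10 proximal tubule markers, 8 were higher in KFs and 0 lower, where 26.1% of all genes were higher. Their sum was lowest in KFs replicate 2. The part of leukocyte and tubule RNA in this result was not tested.

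All 9 cyclin, CDK1 and entry genes rose in KFs. *Ccnb2*, a mitotic cyclin, had 3.24, 5.06 and 4.55 CPM in KFc, against 20, 33.2 and 9.86 CPM in KFs. Every KFs library was above every KFc library, although the KFs libraries themselves spanned a wide range, and the log2 fold change was 2.29 ± 0.39 (adjusted p = 0.00017). *Plk1* went from 4.66, 6.21 and 5.65 CPM to 21.9, 41.1 and 17.2 CPM (2.28 ± 0.35, adjusted p = 6.84e-05). *Cdk1*, the kinase at the centre of mitotic entry, had 11, 10.9 and 9.34 CPM in KFc and 23.2, 41 and 22 CPM in KFs, a smaller change of 1.47 ± 0.28. *Ccna2* (1.92 ± 0.35) and *Ccnb1* (1.74 ± 0.33) lay between them, and the transcription factor gene *Foxm1*, which drives many of the others, rose by 1.35 ± 0.27. Of the *Ccnb1* transcripts' stretches of read length (75 bases), 18.9% also occur in other genes, mostly in the pseudogene *Ccnb1-ps*, so its counts are less certain. The share was at most 4.4% (*Cdc20*) for the other genes.

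Of the checkpoint genes, *Bub1* (2.23 ± 0.40), *Bub1b* (2.11 ± 0.29) and *Ttk* (2.23 ± 0.36), which encode kinases and a pseudokinase of the checkpoint, and *Mad2l1* (1.44 ± 0.29) rose in KFs, and *Bub3* did not (-0.09 ± 0.14). *Bub1* had 3.95, 4.82 and 4.35 CPM in KFc and 15.9, 32.8 and 12.7 CPM in KFs. The chromosomal passenger complex, in which *Aurkb* is the kinase and *Incenp*, *Birc5* and *Cdca8* place it on the chromosome, rose in all 4 genes, from 0.96 ± 0.22 for *Incenp* to 2.11 ± 0.37 for *Birc5*. At the kinetochore and centromere, 6 of 7 genes rose. *Cenpf* had 28, 24.2 and 25.7 CPM in KFc, against 115, 169 and 82.8 CPM in KFs (2.24 ± 0.26, adjusted p = 5.68e-06), the smallest p-value of the list in this comparison. In the NDC80 complex, which grips the microtubule, 3 of the 4 subunits rose, *Ndc80* by 1.89 ± 0.34, *Nuf2* by 1.72 ± 0.38 and *Spc24* by 1.82 ± 0.22. The remaining one, *Spc25*, had 16.7, 16.5 and 16.4 CPM in KFc against 16.5, 24.4 and 13.3 CPM in KFs, and the groups overlapped (0.13 ± 0.26, adjusted p = 0.699).

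All 7 kinesin and spindle genes rose in KFs, led by *Kif11* (2.14 ± 0.31), the motor that pushes spindle poles apart, and *Kif2c* (2.12 ± 0.35), and ending with *Tpx2* (1.17 ± 0.33), which activates Aurora A. Of the anaphase genes, the activator *Cdc20* (1.03 ± 0.30), *Ube2c* (1.14 ± 0.29) and *Espl1*, which encodes separase (1.68 ± 0.27), rose. *Pttg1*, which encodes securin, had 5.22, 6.88 and 5.95 CPM in KFc and 4.61, 4.62 and 5.17 CPM in KFs, slightly lower in every KFs library without passing the test (-0.33 ± 0.16, adjusted p = 0.109). The cytokinesis genes *Anln* (1.28 ± 0.30) and *Ect2* (1.35 ± 0.31) rose, as did *Top2a* (1.73 ± 0.30), the topoisomerase that untangles sister chromatids. *Mki67* had 79.9, 81 and 82.7 CPM in KFc and 359, 574 and 253 CPM in KFs (2.28 ± 0.31, adjusted p = 2.68e-05).

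**Figure D3:**
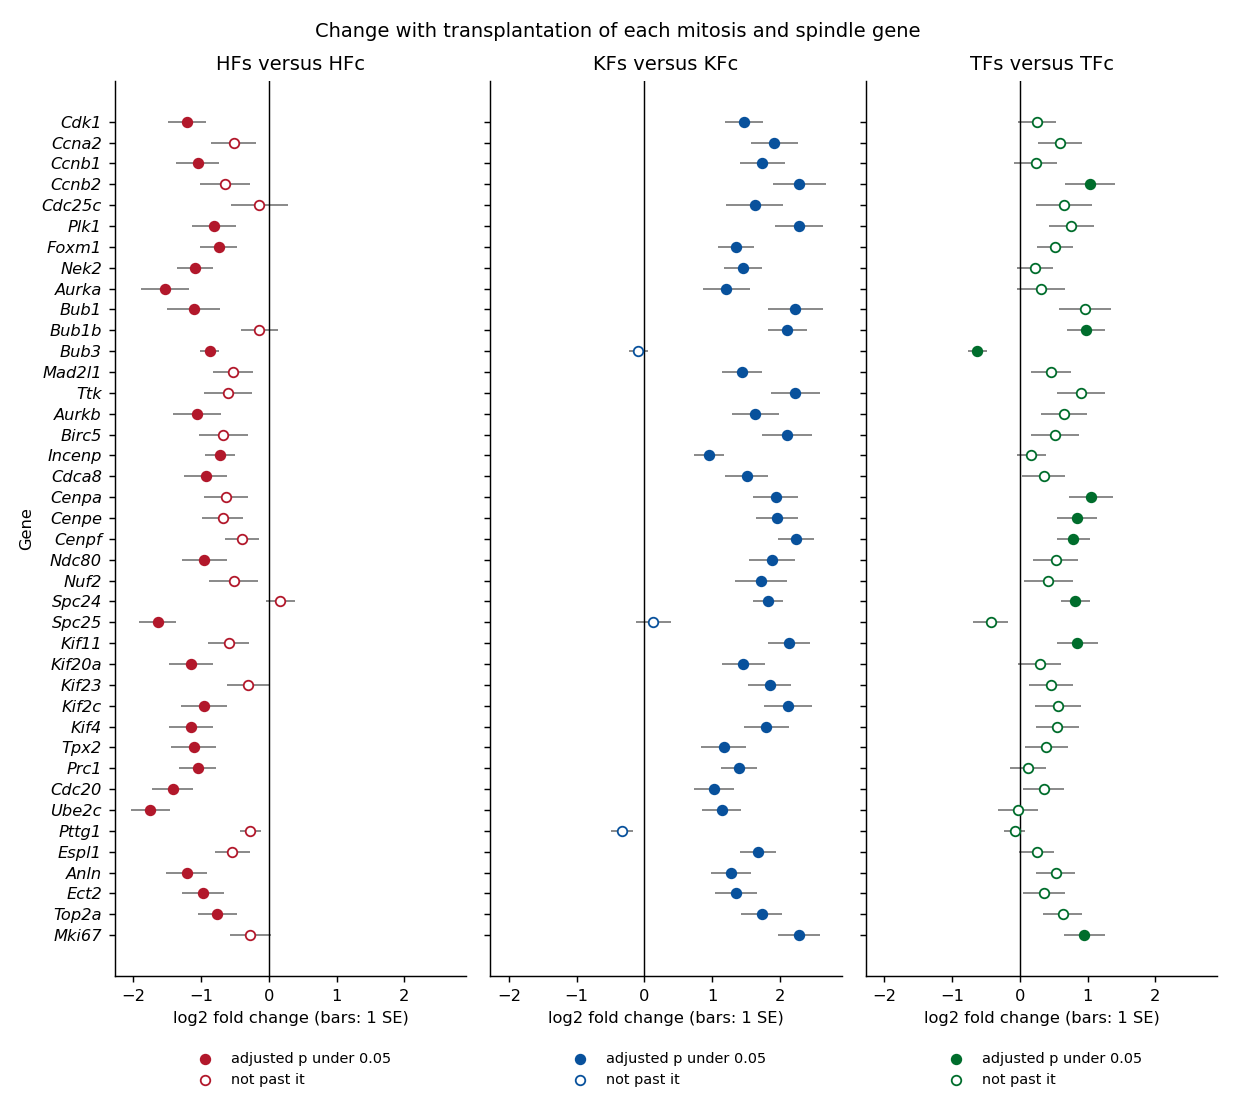
log2 fold change of each gene (points, with bars of 1 SE) in HFs versus HFc (red), KFs versus KFc (blue) and TFs versus TFc (green), filled where the adjusted p was under 0.05 and open where it was not. The heart points lie left of 0 except for *Spc24*, the kidney points right of it except for *Bub3* and *Pttg1*, and most tail points slightly right of it.

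In heart fibroblasts the genes moved the other way. In HFs, 23 of 40 genes were lower than in HFc and none was higher, where 28.4% of all genes tested were lower and 28% higher (56.4% in either direction). At an unadjusted p under 0.05 the counts were 24 and 0, and by DESeq2 22 and 0. In a fit of only HFs and HFc, without the spread of the other groups, they were 33 and 0. The share of all genes called in that fit is not given here, so this count has no background to be read against. The median log2 fold change was -0.78 against 0.047 over all genes, and 14 genes fell more than 2-fold, as did 9.33% of all genes. In 34 genes all HFs libraries lay under all HFc libraries, as for 34% of all genes. Leaving out 1 library gave between 13 and 22 genes, 13 without HFs replicate 2, the library with the highest tubule marker sum, and 15 without HFc replicate 2, with medians from -0.84 to -0.64. In all 6 of these fits 13 genes kept their call: *Anln*, *Aurka*, *Bub3*, *Ccnb1*, *Cdc20*, *Cdk1*, *Kif20a*, *Kif4*, *Nek2*, *Prc1*, *Spc25*, *Tpx2* and *Ube2c*. The part of tubule RNA in the result was not tested.

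Genes of the anaphase step had some of the largest falls in HFs. *Ube2c* had 33.3, 35 and 28.3 CPM in HFc and 9.44, 10.6 and 8.73 CPM in HFs, and *Cdc20* had 26.4, 24.9 and 22.9 CPM in HFc and 11.8, 8.99 and 7.02 CPM in HFs. In both genes every HFs library lay under every HFc library, with log2 fold changes of -1.75 ± 0.29 (adjusted p = 0.000112) and -1.42 ± 0.30 (adjusted p = 0.000903). *Espl1* (-0.54 ± 0.26) and *Pttg1* (-0.27 ± 0.16) did not pass the threshold. *Spc25* fell by 1.64 ± 0.27 on the log2 scale (adjusted p = 0.000102), from 30.8, 32.5 and 26.8 CPM to 8.12, 9.48 and 11.2 CPM. Of its partners in the NDC80 complex, *Ndc80* fell by 0.95 ± 0.33 (adjusted p = 0.0231), while *Nuf2* (-0.52 ± 0.36) and *Spc24* (0.17 ± 0.21) did not pass. Of the chromosomal passenger genes, *Aurkb* (-1.06), *Cdca8* (-0.93) and *Incenp* (-0.72) fell, and of the checkpoint genes *Bub1* (-1.11 ± 0.39) and *Bub3* did.

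*Aurka*, the Aurora kinase of the spindle pole, went from 16.8, 15.9 and 14.2 CPM to 6.85, 4.19 and 5.28 CPM in HFs (-1.53 ± 0.35, adjusted p = 0.00176). *Cdk1* went from 30.7, 38.2 and 34.3 CPM to 15.3, 14.5 and 14.7 CPM (-1.21 ± 0.28), and *Ccnb1* from 30.3, 31 and 30.4 CPM to 16.1, 14 and 14 CPM (-1.05 ± 0.32). The other cyclins did not pass the test, at -0.52 ± 0.33 for *Ccna2* and -0.65 ± 0.37 for *Ccnb2*. Of the kinesin and spindle genes, *Kif20a*, *Kif4*, *Tpx2*, *Prc1* and *Kif2c* fell, by 0.96 (*Kif2c*) to 1.15 (*Kif20a* and *Kif4*) on the log2 scale, while *Kif11* (-0.59 ± 0.30) and *Kif23* (-0.30 ± 0.32) did not pass. Both cytokinesis genes fell, *Anln* by 1.21 ± 0.30 and *Ect2* by 0.97 ± 0.31. *Mki67* had 254, 257 and 239 CPM in HFc and 235, 164 and 222 CPM in HFs, all HFs libraries under all HFc libraries, but the difference was within the error of the test (-0.27 ± 0.30, adjusted p = 0.456). *Bub1b* was close to it, with 32.3, 28 and 29.3 CPM in HFc and 29.2, 25 and 26.9 CPM in HFs (-0.14 ± 0.27).

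In tail fibroblasts the change was small and came mostly from a single library. Relative to TFc, 8 of 40 genes were higher in TFs, where 18.6% of all genes tested were, and 1, *Bub3*, was lower, where 20.2% were. Past a 2-fold limit 2 genes were higher and 0 lower, against 11% and 5.53% of all genes. The median log2 fold change was 0.52, against 0 over all genes. The higher genes were *Ccnb2* (1.03 ± 0.37), *Bub1b* (0.98 ± 0.28), *Cenpa* (1.05 ± 0.33), *Cenpe* (0.84 ± 0.30), *Cenpf* (0.79 ± 0.25), *Spc24* (0.82 ± 0.21), *Kif11* (0.85 ± 0.30) and *Mki67* (0.95 ± 0.30). *Mki67* had 147, 147 and 154 CPM in TFc and 465, 229 and 173 CPM in TFs. All TFs libraries were above TFc for this gene, the first of them by far. *Cdk1* had 17.6, 12.9 and 16.3 CPM in TFc and 27.9, 17.4 and 10.5 CPM in TFs, on both sides of the controls. Without TFs replicate 1 the median of the list was -0.01, only *Spc24* was still higher, and *Bub3* and *Spc25* were lower. Without TFs replicate 3, 15 genes were higher and 1 lower, and leaving out a TFc library left 1 to 3 genes higher. TFs replicate 1 had the highest tubule marker sum of the 3 TFs libraries (326 CPM), and the part of this was not tested.

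**Figure D4:**
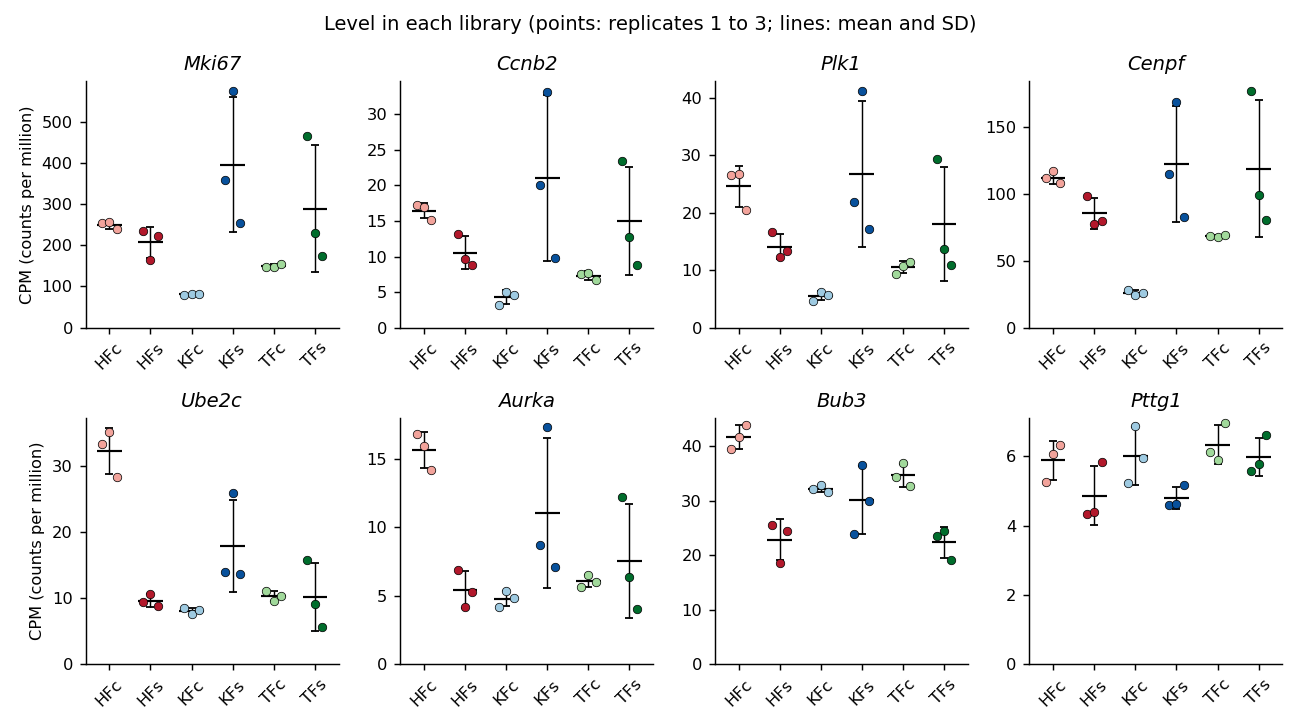
CPM of 8 of the genes in each library (points, replicates 1 to 3 from left to right within a group), with the group mean and SD as lines, each panel on its own linear axis from 0. In *Mki67*, *Ccnb2*, *Plk1* and *Cenpf* KFc is the lowest group and KFs rises with a wide spread, *Ube2c* and *Aurka* stand out in HFc, *Bub3* is lower in HFs and TFs than in their cultures, and *Pttg1* stays between 4.33 and 6.97 CPM.

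Whether the organs responded differently was tested as the difference between their log2 fold changes. The heart and kidney changes differed in 39 of 40 genes, all with the heart change below the kidney change, where 15.5% of all genes tested differed in that direction. The median difference was -2.53, and leaving out any of the 12 libraries gave 37 to 39 genes, with 39 without KFs replicate 3. *Bub1* had the largest difference (-3.34 ± 0.56, adjusted p = 0.000644), made up of -1.11 ± 0.39 in heart and 2.23 ± 0.40 in kidney cells. *Plk1* (-3.09 ± 0.48), *Kif2c* (-3.08 ± 0.49), *Kif4* (-2.95 ± 0.46) and *Ccnb2* (-2.94 ± 0.53) followed. *Bub3* (-0.77 ± 0.20, adjusted p = 0.0111) and *Spc25* (-1.77 ± 0.37, adjusted p = 0.0028), which did not rise in KFs, also differed, and both fell in HFs. *Pttg1* was the single exception (0.06 ± 0.23). In 21 genes a fall in HFs and a rise in KFs both passed the threshold, and 16 more rose in KFs with no call in HFs.

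The heart and tail changes differed in 28 genes, all lower in heart, where 12.7% of all genes were, with a median difference of -1.32. Here, too, *Bub1* led (-2.07 ± 0.56), followed by *Aurka* (-1.84 ± 0.50) and *Cdc20* (-1.77 ± 0.42). Leaving out 1 library gave between 8 and 32 genes: 8 without TFs replicate 1 or HFs replicate 2, 11 without HFs replicate 3 or TFc replicate 2 or 3, and 13 without HFc replicate 1 or 2 or TFc replicate 1. The kidney and tail changes differed in 7 genes, all higher in kidney, where 4.99% of all genes were: *Kif2c*, *Ccnb1*, *Cenpf*, *Espl1*, *Prc1*, *Nek2* and *Spc24*, by 1.00 to 1.56. Every one of its 12 libraries moved this count, to 35 without TFs replicate 1, 28 without KFs replicate 3, 13 without KFs replicate 1 and 1 to 3 without any of the others. Each organ's change enters 2 of these 3 comparisons.

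Among transplanted cells the organs lay closer together. Between HFs and TFs, 0 of the genes passed edgeR's test (23.1% of all genes did), and the median log2 fold change was -0.41. The groups overlapped in all 40 genes, where 18.6% of all genes were higher and 23.7% lower without overlap. At an unadjusted p under 0.05, 8 genes were lower in HFs. DESeq2 called 1 gene, library size alone as the scaling gave 13, and 8 were lower without TFs replicate 3. Relative to TFs, *Bub3* (0.43 ± 0.14) and *Ube2c* (0.82 ± 0.29) were higher in KFs, where 15.3% of all genes were. This count was 31 without TFs replicate 1, 11 without KFs replicate 3, 1 without TFs replicate 2, and 0 without KFs replicate 2 or TFs replicate 3. HFs and KFs differed in 26 genes, all lower in HFs, where 19% of all genes were, and 24 genes did not overlap, as for 19.1% of all genes. *Bub1* had 6.19, 4.94 and 7.59 CPM in HFs and 15.9, 32.8 and 12.7 CPM in KFs (-1.71 ± 0.40, adjusted p = 0.00391). *Ttk* followed, with 3.79, 3.66 and 4.1 CPM in HFs and 9.74, 16.3 and 7.06 CPM in KFs (-1.52 ± 0.35, adjusted p = 0.00382). The count was 38 without KFs replicate 3, 2 without KFs replicate 2, 4 without HFs replicate 2 and 7 without HFs replicate 3.

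*Bub3*, *Spc25* and *Pttg1* were the 3 genes that did not rise in KFs. *Bub3* (chr7:131560222-131571895), the checkpoint adaptor that carries *Bub1* and *Bub1b* to kinetochores, had 39.5, 41.7 and 44 CPM in HFc and 25.6, 18.6 and 24.5 CPM in HFs. In tail cells it had 34.4, 36.9 and 32.8 CPM in TFc and 23.5, 24.5 and 19.2 CPM in TFs. It fell in both, by 0.87 ± 0.14 (adjusted p = 0.00012) and 0.63 ± 0.14 (adjusted p = 0.00299) on the log2 scale, and both calls stood whichever library was left out. In kidney cells it stayed within 32.1, 32.9 and 31.6 CPM in KFc and 24, 36.6 and 29.9 CPM in KFs. *Pttg1* (chr11:43420250-43426251) passed the threshold in none of the 3 transplant comparisons, and *Spc25* (chr2:69193895-69206194) passed it in HFs alone.

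Genes of the same processes outside the list were counted in the same way. Of all genes tested, 26.1% were higher and 22.7% lower in KFs, 28% higher and 28.4% lower in HFs, and 18.6% higher in TFs. Of 33 further spindle, kinesin and cytokinesis genes, 26 were higher in KFs and none lower, and 22 were lower and 1 higher in HFs. In TFs 5 were higher, under the share of all genes. *Kif14* rose by 2.60 ± 0.37 in KFs and *Kif15* by 2.63 ± 0.38, with -0.47 ± 0.35 and -0.12 ± 0.36 in HFs. Of 36 further kinetochore and centromere genes, 23 were higher in KFs and none lower. In HFs 11 of them were lower, near the share of all genes, and 1 higher. *Knl1* had 2.37 ± 0.30 in KFs and -0.46 ± 0.29 in HFs. Of 21 condensin and cohesin genes, which compact chromosomes and hold sisters together, 17 were higher in KFs. In HFs 5 were lower, under the share of all genes, and 3 higher. S phase replication genes moved in the same directions, with 30 of 36 higher and 2 lower in KFs, and 26 lower and 1 higher in HFs. *Orc1*, of the origin recognition complex, had 1.99 ± 0.31 in KFs and -1.48 ± 0.32 in HFs. *Rrm2*, which encodes a subunit of the reductase that makes deoxynucleotides, went against its list in KFs, falling by 0.93 ± 0.31 there, by 2.68 ± 0.33 in HFs and by 2.25 ± 0.32 in TFs on the log2 scale.

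Without the libraries that stood apart, the spindle list had 29 genes higher in KFs (without KFs replicate 3), 1 higher and 11 lower in HFs (without HFs replicate 2) and 1 higher and 2 lower in TFs (without TFs replicate 1). For the kinetochore list these counts were 24 higher and 2 lower in KFs, 1 higher and 5 lower in HFs and 1 higher and 1 lower in TFs. With all libraries it had 3 higher and 2 lower in TFs. For the S phase list they were 33 higher and 2 lower in KFs, 1 higher and 17 lower in HFs and 2 higher and 3 lower in TFs. With all libraries the S phase list had 6 higher and 3 lower in TFs. Without these libraries, condensin and cohesin had 16 higher in KFs and 3 higher and 2 lower in HFs. Of the lists described next, the anaphase-promoting complex had 7 higher and 3 lower in KFs and 7 lower in HFs, the Rb, E2F and MuvB genes 7 higher and 5 lower in KFs, the entry kinases 9 higher and 3 lower in KFs and 3 lower in HFs, the G1 cyclins 4 higher and 3 lower in KFs and the CDK inhibitors 2 higher and 3 lower in KFs. The medians of the spindle list were then 1.80, -0.65 and 0.01. The shares of all genes called in these fits are not given here.

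Upstream regulators and the anaphase-promoting complex had members called in both directions in KFs. The shares to read them against are 26.1% of all genes higher and 22.7% lower in KFs, and 28% higher and 28.4% lower in HFs. In TFs they are 18.6% higher and 20.2% lower. Of 18 subunits and regulators of the complex, 5 were higher and 3 lower in KFs, with a median of 0.17, while 12 were lower and 1 higher in HFs, with a median of -0.37. In KFs, the number higher in both this list and the next is near the share of all genes. *Fbxo5*, which inhibits the complex before mitosis, rose in KFs by 1.71 ± 0.32 and fell in HFs by 1.04 ± 0.31. *Ube2s* (-1.56 ± 0.23) and *Mad2l1bp* (-1.09 ± 0.25) also fell in HFs. Neither passed the threshold in KFs (0.28 ± 0.22 and -0.51 ± 0.24). Of 22 Rb, E2F and MuvB genes, 6 were higher and 3 lower in KFs and 2 higher and 11 lower in HFs. *Mybl2*, the B-Myb that joins MuvB to switch on late cell cycle genes, rose by 1.73 ± 0.31 in KFs and by 0.98 ± 0.31 in TFs and fell by 0.84 ± 0.31 in HFs. Its call in TFs rested on TFs replicate 1: of the Rb, E2F and MuvB genes 2 were higher and 4 lower in TFs, and without that library 0 were higher and 3 lower. *E2f6* fell in all 3 organs (-1.57 ± 0.12 in KFs, -1.72 ± 0.12 in HFs, -0.73 ± 0.12 in TFs). Of 14 further entry kinases and phosphatases, 7 were higher and 3 lower in KFs and 1 higher and 7 lower in HFs. *Plk4*, of centriole copying, had 1.45 ± 0.26 in KFs and -0.36 ± 0.26 in HFs. *Cdc14a* rose in all 3 organs (1.01 ± 0.21 in KFs, 1.36 ± 0.21 in HFs, 0.9 ± 0.2 in TFs).

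Of the 8 G1 cyclins and their kinases, 5 were lower and none higher in HFs, 3 were higher and 2 lower in KFs, and 1 was higher and 3 lower in TFs, with median log2 fold changes of -0.94, 0.29 and 0.05. *Ccnd1*, the cyclin that growth factors induce, had means of 568 CPM in HFc and 76.7 CPM in HFs, 177 CPM in KFc against 80.6 CPM in KFs, and 380 CPM in TFc and 187 CPM in TFs. It fell in all 3 organs, by 2.89 ± 0.12, 1.13 ± 0.11 and 1.02 ± 0.11 on the log2 scale. *Ccnd2* fell likewise, by 1.60 ± 0.16, 1.56 ± 0.16 and 1.17 ± 0.16. *Ccne2*, a cyclin of S phase entry, had -1.14 ± 0.31 in HFs, 1.84 ± 0.31 in KFs and 0.14 ± 0.31 in TFs. Of the 7 CDK inhibitors, 2 were higher and 1 lower in HFs, 2 and 3 in KFs and 2 and 4 in TFs. *Cdkn2b* fell by 2.23 ± 0.23 in KFs, from a mean of 130 to 27.7 CPM, and by 1.48 ± 0.23 in TFs, while HFs had -0.43 ± 0.22. *Cdkn1b*, which encodes p27, rose by 1.13 ± 0.20 in HFs and 1.18 ± 0.20 in KFs. *Cdkn1c* changed most, by 3.68 ± 0.72 in HFs, from a low mean of 0.309 CPM to 4.2 CPM. It had 1.95 ± 0.61 in TFs and did not pass the threshold in KFs (0.94 ± 0.6).

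**Figure D5:**
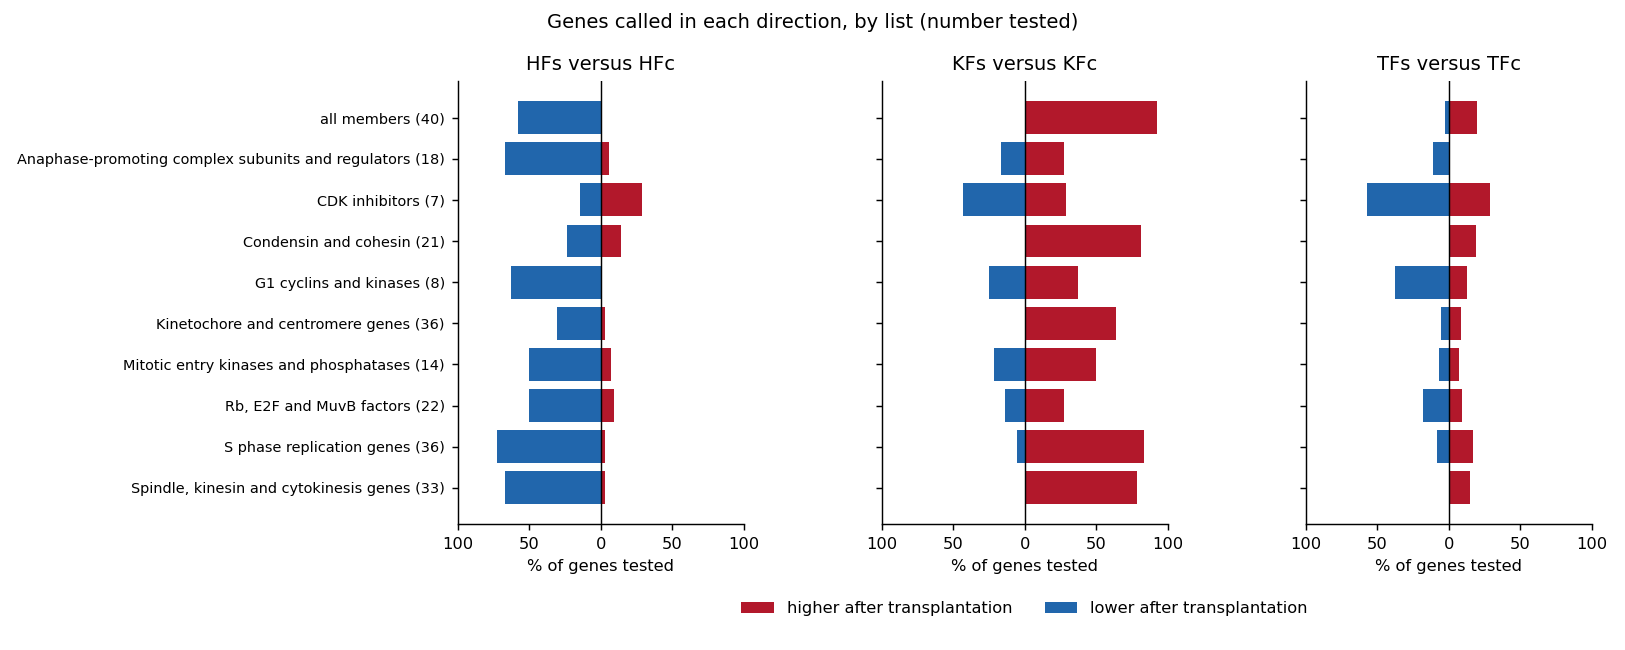
Share of the tested genes of each list (number in parentheses) that were higher (red, to the right) or lower (blue, to the left) after transplantation at an adjusted p under 0.05, in % on an axis that runs to 100 on either side, for heart, kidney and tail cells. Bars of the mitosis and spindle genes, further spindle genes and S phase genes point left in heart and right in kidney cells, and those of CDK inhibitors point both ways in all 3.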

How the data were processed

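RNA-seq was performed on 18 libraries, 3 in each of 6 groups of cultured or transplanted fibroblasts. The deposited values are expected counts per gene, which the authors estimated with RSEM from 75-base single-end reads of a stranded total RNA kit. The study's methods name GRCm38, while the submitters' processing notes name mm9 with Bowtie, and the annotation release is not given in the sources used here. Of 38924 genes, 37607 carried a symbol and 13968 had no count.

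Expected counts were rounded to whole numbers. Genes passing edgeR's expression filter (16577) were tested with edgeR 4.0.16 (R 4.3.3) by the quasi-likelihood test, with TMM scaling, 1 fit over all 6 groups (common biological coefficient of variation 0.24) and Benjamini-Hochberg adjustment over all genes tested at a threshold of 0.05. Differences between organs in their change were contrasts of the same fit. CPM used the TMM-scaled library sizes, and errors of fold changes are SE. Library totals were 17927838 to 32245168, and counting intervals (Wilson, 95%) cover counting error only. The tests were checked on simulated data with 1 spread for all genes and groups. That check does not cover the unequal spread of the groups here. Alternatives were DESeq2 1.42.0, other scalings and filters, fits of only the groups compared, a replicate block and leaving out each library.

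Promoters came from RefSeq (GRCm38.p6), gene positions from GENCODE on GRCm38. Names outside the list were taken by rank: from the called genes with the largest changes in each process list, not all of which are named, and the 10 genes most similar to the mean of the list. The members and lists were chosen with earlier results of these data known. Columns of per-library values not used numbered 0.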

Additional observations from a re-analysis of the deposited data

Results flagged for a closer look

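The change after transplantation differed between organs by the test of the difference itself (edgeR's quasi-likelihood test, adjusted over all genes tested). Between heart and kidney cells 39 of the 40 genes differed, all lower in heart, where 15.5% of all genes were. *Bub1* (-3.34), *Plk1* (-3.09) and *Kif2c* (-3.08) had the largest differences of log2 fold changes. Between heart and tail cells 28 differed, all lower in heart, where 12.7% of all genes were, led by *Bub1* (-2.07), *Aurka* (-1.84) and *Cdc20* (-1.77). Between kidney and tail cells 7 differed, all higher in kidney, where 4.99% of all genes were. These were *Kif2c* (1.56), *Ccnb1* (1.51), *Cenpf* (1.44), *Espl1* (1.43), *Prc1* (1.28), *Nek2* (1.24) and *Spc24* (1.00). Leaving out 1 library gave 8 to 32 genes for heart and tail and 1 to 35 for kidney and tail. The *Ccnb1* value carries the uncertainty of reads shared with its pseudogene. With 3 libraries per group, single libraries were not tested as outliers.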

How the results depend on the processing

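The rise in KFs, the difference between HFc and KFc and that between heart and kidney changes kept their direction and stayed within 1.5 times their counts under every alternative run (34 to 37, 36 to 37 and 37 to 39 genes). The counts that follow moved further with single libraries or settings, and the cause was not tested. Leaving out 1 library gave 13 to 22 genes for HFs versus HFc, 2 to 16 for TFs versus TFc, 13 to 20 for HFc versus TFc, 5 to 9 for KFc versus TFc, 0 to 8 for HFs versus TFs, 0 to 31 for KFs versus TFs, 2 to 38 for HFs versus KFs, 8 to 32 for the heart and tail changes and 1 to 35 for the kidney and tail changes, and moved the TFs median between -0.01 and 0.75. Calls that also had to pass a 2-fold change numbered 14 for HFs versus HFc, 2 for TFs versus TFc, 8 for KFc versus TFc, 0 for KFs versus TFs and 9 for HFs versus KFs. HFs versus TFs had 13 genes with library size alone and 1 with DESeq2. The kidney and tail changes differed in 4 genes with DESeq2 size factors, 14 with library size alone, 4 without the low-count filter and 17 with DESeq2. The summed level of HFc was 1621 CPM with library size alone, and that of TFc 1009 CPM with library size alone and 936.3 CPM with DESeq2 size factors. In the promoter window that runs to 50 bases after the start, an alternative chosen after seeing the data, the CHR core share was 80% and that with both motifs 71.4%. The process lists and correlations without 1 library were also added after seeing the data.

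Among single genes, directions turned where the main value was small. Leaving out 1 library moved the log2 fold change of *Cdc25c* in HFs between -0.50 and 0.10 (0.06 and 0.10 without HFs replicates 2 and 3), that of *Bub3* in KFs between -0.31 and 0.05, and that of *Spc25* in KFs between -0.19 and 0.27. In TFs, 17 genes turned, or reached 0 (*Anln*), without TFs replicate 1, the lowest value of each range: *Cdk1* (-0.16 to 0.54), *Ccnb1* (-0.30 to 0.53), *Nek2* (-0.22 to 0.51), *Aurka* (-0.22 to 0.61), *Birc5* (-0.10 to 0.78), *Incenp* (-0.18 to 0.36), *Cdca8* (-0.18 to 0.62), *Ndc80* (-0.09 to 0.79), *Nuf2* (-0.08 to 0.72), *Kif20a* (-0.22 to 0.56), *Kif23* (-0.02 to 0.72), *Tpx2* (-0.12 to 0.67), *Prc1* (-0.36 to 0.36), *Cdc20* (-0.07 to 0.54), *Espl1* (-0.19 to 0.45), *Anln* (0 to 0.79) and *Ect2* (-0.23 to 0.64). *Ube2c* in TFs was 0 with DESeq2 and ranged from -0.49 to 0.25.

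Whether replicate numbers pair the libraries is not given in the sources used here. Same-numbered libraries of the groups compared correlated in their deviations by -0.0898 to 0.0243 on average. With 3 libraries per group, this cannot exclude pairing. With a replicate block, 37 genes were higher in KFs, and in HFs 1 call was lost and 2 were gained.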
